A study of Saccharomyces cerevisiae with 12 samples.

Results

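RNA captured after treatment with ADP-ribosylcyclase (ADPRC) was compared with mock-treated RNA in budding yeast grown in minimal medium. The comparison used 6 of the 12 libraries of the study, 3 with ADPRC and 3 without, and every gene with a mean of at least 10 normalised read counts over these 6 libraries. This gave 5349 genes of 6607 identifiers. The strain in all groups was BY4742, a haploid alpha-mating-type strain with deletions in HIS3, LEU2, LYS2 and URA3. Cells grew to mid-log phase (OD600 of about 0.5) in yeast nitrogen base with a complete amino acid mixture and 2% dextrose. DNase-treated total RNA was used whole, without fragmentation or removal of ribosomal RNA. It was then incubated with the alkyne 4-pentynol, with the enzyme (ADPRC group) or without it (mock group). In both groups biotin was attached by click chemistry, and the RNA bound to streptavidin beads was reverse transcribed on the beads. Libraries of the same strain in rich medium (YEPD with 2% dextrose), 3 with ADPRC and 3 mock, serve below only for comparison. Whether replicates came from different cultures is not stated in the labels. If they did not, the p-values reflect technical spread alone.

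Most eukaryotic messenger RNAs begin with a methylated guanosine cap, but some begin with nicotinamide adenine dinucleotide (NAD), which an RNA polymerase can place as the first nucleotide. ADPRC exchanges the nicotinamide of such a cap for an alkyne, to which biotin can be joined. RNA found in the mock libraries is the background of the capture. Each library was made from the RNA of a whole culture, so fewer cells with a transcript and less of it per cell cannot be told apart.

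The mock libraries held 3246900, 3937618 and 3358689 recovered reads and the ADPRC libraries 7959385, 6727168 and 7122417. Reading frames inside the ribosomal DNA took 50.7% to 54.7% of the reads in mock and 30.9% to 33.2% in ADPRC libraries. Frames on the Watson strand of the ribosomal DNA, opposite to the ribosomal RNA, took 0.013% to 0.048% of all reads in these 6 libraries and 52.3% to 63.5% in the YEPD libraries. The libraries of the media stand apart in this, and its part in the comparison between media was not tested. A gene with no reads could hold up to 4.28 to 5.42 normalised counts in mock and 1.60 to 1.92 in ADPRC libraries (3 reads, counting error only). No tested gene was at 0 in any of the 6 libraries. Of the tested genes, 40 had a mock mean under 10 and 19 an ADPRC mean under 10. The genes nearest to the filter were YGR296C-B inside (mean 10.03) and YKL202W outside (9.83), and 1258 identifiers lay outside. LEU2, LYS2 and URA3 were listed at 0 in all 6 libraries. HIS3, which the strain's allele is known to keep in part, lay between 89.5 and 108 in mock and between 135 and 145 in ADPRC libraries. All 9 alpha-cell genes passed the filter, with a summed level of 4930 to 5263 in mock and 5651 to 8245 in ADPRC libraries. Of the a-cell genes 1 of 7 passed (STE6, 36.2 to 45.6 in mock, 30.1 to 32.5 in ADPRC), and the pheromone genes MFA1 and MFA2 did not exceed 1.81 in any library.

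After ADPRC, 1285 genes were higher (24.0% of those tested) and 1260 were lower (23.6%) at an adjusted p under 0.05 (limma with Benjamini-Hochberg adjustment), 47.6% in either direction. The changes were mostly small. Among called genes the median log2 difference was 0.59 for those higher and -0.45 for those lower, and 167 rose and 18 fell by more than 2-fold. The 3 ADPRC values lay wholly on one side of the 3 mock values in 2988 genes (55.9%), above in 28.0% and below in 27.8%. The median over all tested genes was 0.01 on the authors' scale. With each library brought to the same total instead, it was 0.44, a shift of 0.43, and 3231 genes were higher and 171 lower. With equal totals outside the ribosomal DNA frames the shift was -0.10, and 982 were higher and 1648 lower. Directions below are relative to the median gene on the authors' scale. The same-total scaling moved a count of called members by over 1.5 times in 29 of 37 gene lists, and 9 of the 12 lists with a negative median then had a positive one. The exceptions, which stayed negative, were the large TOR, PIKK, dynein and lipid-transfer proteins, the mitochondrially encoded genes and the ribosomal DNA frames.

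The changes followed gene length. Called higher genes had a median gene span of 753 bases, called lower genes 2493, and all tested genes 1267. Of the 142 genes with spans under 300 bases, 88 rose and 5 fell (median log2 difference 0.57). Of the 620 genes from 300 to under 600 bases, 341 rose and 18 fell (0.48), and of the 860 from 600 to under 900, 383 rose and 19 fell (0.32). The 1549 genes from 900 to under 1500 bases lay near the middle, with 386 higher and 137 lower (0.10). Of the 1264 from 1500 to under 2400 bases, 77 rose and 393 fell (-0.16). Of the 592 from 2400 to under 3600 bases, 3 rose and 422 fell (-0.38). Of the 266 genes of 3600 bases or more, 0 rose and 249 fell by the limma test (-0.57). Across genes, which are not independent replicates, Spearman's rank correlation between span and change was -0.69 over 5293 genes with a span.

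**Figure D1:**
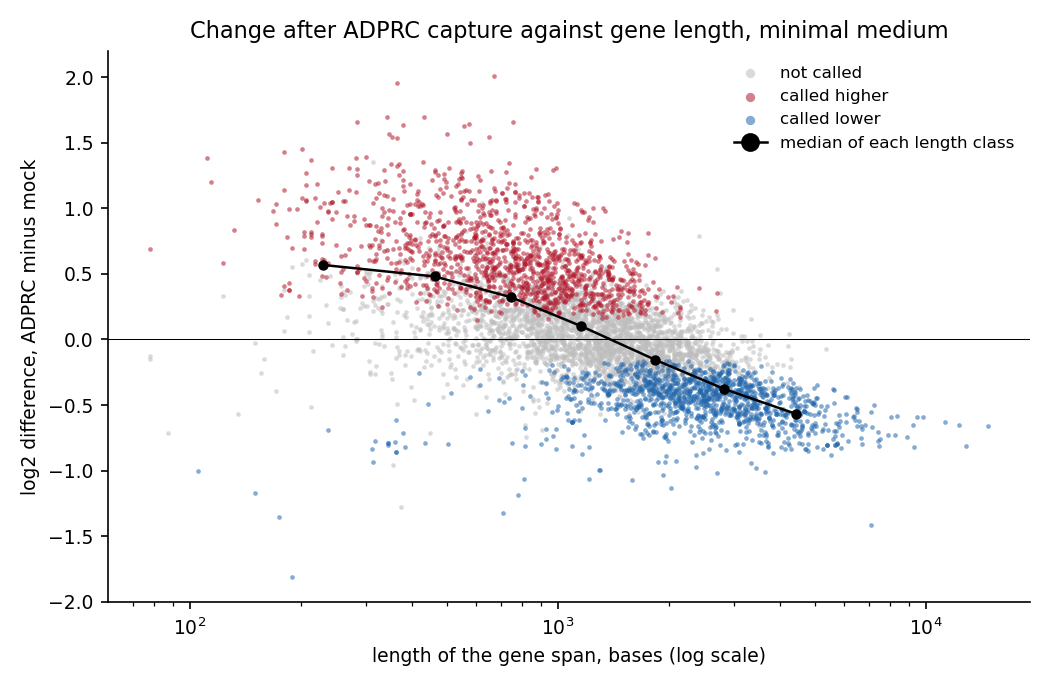
Log2 difference between ADPRC and mock libraries (vertical axis) against the length of the gene span in bases (horizontal log axis) for 5293 genes, coloured by call. The line joins the medians of the 7 length classes and falls from 0.57 to -0.57.

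The same order was seen in each ADPRC library. For genes under 300 bases the median difference from the mean of the mock libraries was 0.56, 0.69 and 0.58 in ADPRC replicates 1, 2 and 3. For genes of 3600 bases or more it was -0.59, -0.65 and -0.50. Each mock library set against the other mock libraries stayed between -0.07 and 0.09 in every length class. The median log2 value of genes under 600 bases (n = 762) minus that of genes of 2400 bases or more (n = 858) was -2.33, -2.45 and -2.34 in mock replicates 1, 2 and 3. In ADPRC replicates 1, 2 and 3 it was -1.47, -1.37 and -1.60. The groups did not overlap, and their means, -2.37 ± 0.07 and -1.48 ± 0.11 (SD, n = 3), differed by 0.90 (exact two-sided permutation test, p = 0.1, the smallest that 3 against 3 libraries can give). The relation was present at each level of expression. Among genes with means from 10 to under 50, short genes had a median change of 0.47 and long genes of -0.35. Among genes with means of 1000 or more these were 0.53 and -0.55. Depth and the ribosomal DNA share differed between the groups as given above, and their part in this result was not tested.

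**Figure D2:**
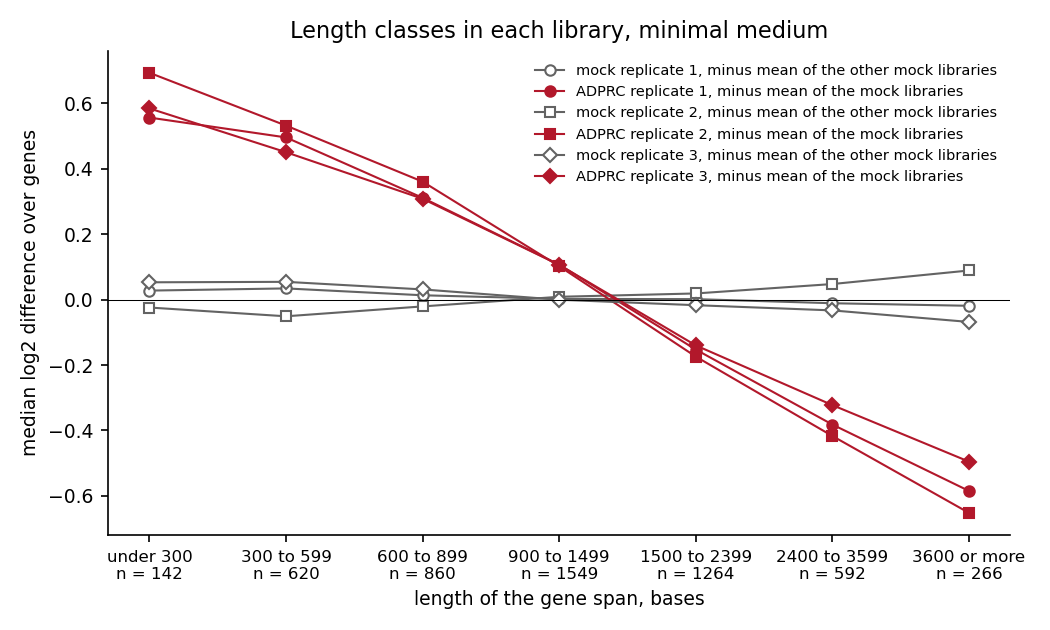
Median log2 difference over the genes of each length class (horizontal axis, with n) for each ADPRC library against the mean of the mock libraries and for each mock library against the other mock libraries. The ADPRC lines run from between 0.56 and 0.69 to between -0.65 and -0.50, and the mock lines stay between -0.07 and 0.09.

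Genes were therefore also compared at matched length, by removing a smooth trend of log2 value on log2 span from each library. Of 5293 genes, 744 (14.1%) were then higher and 673 (12.7%) lower, 26.8% in either direction, and the groups did not overlap in 41.0%. Without ADPRC replicate 1, 485 were higher and 412 lower. Of the 1278 genes with a span that were called higher as measured, 581 were called higher at matched length too, and of the 1243 called lower, 410 were called lower. Calls in opposite directions were given to 15 genes that were higher as measured and lower at matched length and to 19 with the reverse. At matched length 19 genes rose and 38 fell by more than 2-fold. Below, a matched-length difference is a log2 difference with this trend removed.

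The largest increases were ranked among called genes whose groups did not overlap. The first 10 were SHU2, RPS20, DIB1, BLI1, ATG44, COX2, IMP1, YJR112W-A, MXR1 and UBC7, with log2 differences from 1.57 to 2.01. RPS20 (YHL015W, chromosome VIII, span 366 bases), a protein of the small cytosolic ribosomal subunit, had the largest increase of the genes with means of at least 1000. It read 3766, 3478 and 4029.5 normalised counts in mock and 14449, 16068 and 13237 in ADPRC libraries. The lowest ADPRC value was more than 3 times the highest mock value, and the log2 difference was 1.95 ± 0.07 (SE; limma, adjusted p = 1.00e-15) and 1.43 at matched length. DIB1, a small protein of the spliceosomal tri-snRNP, read 16.3, 22.8 and 26.9 in mock and 66.02, 81.3 and 69.8 in ADPRC libraries (1.70 ± 0.21, limma adjusted p = 3.58e-07). ATG44, which acts in the division of mitochondria for mitophagy, read 25.3, 22.8 and 25.1 in mock and 73.5, 83.9 and 80.3 with ADPRC (1.66 ± 0.18). In both genes the groups were well apart, although the levels were low.

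MXR1, a methionine sulfoxide reductase, read 43.4, 52.7 and 48.3 in mock and 176, 140.2 and 138 in ADPRC libraries (1.63 ± 0.14, limma adjusted p = 2.74e-09). IMP1, a catalytic subunit of the inner membrane peptidase of mitochondria, read 30.7, 29.9 and 32.2 in mock and 102, 85.8 and 111 with ADPRC (1.65 ± 0.17). UBC7, a ubiquitin-conjugating enzyme of endoplasmic reticulum quality control, read 94.02, 109.8 and 80.6 in mock and 279, 261 and 303 with ADPRC (1.57 ± 0.12). These 3 genes had each ADPRC value at more than 2 times each mock value. SHU2, which works in recombinational repair, had the largest log2 difference (2.01 ± 0.41) but at the lowest level, with 1.81, 8.55 and 5.37 in mock and 18.6, 21.1 and 24.7 in ADPRC libraries. Its mock mean of 5.24 was under the filter of 10, so the gene passed through the ADPRC group, and its lowest mock value was under the limit that 3 reads set. BLI1, a subunit of the endosomal BLOC-1 complex, read 5.42, 24.2 and 21.5 in mock and 59.1, 39.7 and 49.4 in ADPRC libraries, and its difference of 1.69 ± 0.51 missed the threshold without mock replicate 3 (limma adjusted p = 0.058).

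Of the 7 tested mitochondrial genes, COX2, subunit II of cytochrome c oxidase, and OLI1, the ring subunit of ATP synthase, rose. COX2 read 186, 179.6 and 274 in mock and 649, 658 and 676 in ADPRC libraries (1.65 ± 0.13, 1.33 at matched length). OLI1 read 407, 409 and 512 in mock and 791, 927 and 1019 in ADPRC libraries (1.04 ± 0.10). The other 5 fell, COB by 1.42 and ATP6 by 1.19 among them. Of all tested genes 24.0% were higher and 23.6% lower. The list's median was -1.07 against 0.10 for other genes of its lengths. COX2 overlaps the frame Q0255 and COB overlaps BI2, BI3 and BI4, so their reads cannot be assigned with certainty.

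At matched length YGK1, NUC1 and CDC10 joined the 12 largest increases. NUC1, the mitochondrial nuclease (span 990 bases), read 95.8, 76.97 and 68.02 in mock and 201, 204 and 189 in ADPRC libraries (1.31 ± 0.13, 1.11 at matched length). CDC10, a septin (969 bases), read 148, 154 and 158 in mock and 388, 389.9 and 356 with ADPRC (1.30 ± 0.09, 1.09 at matched length, where the limma adjusted p was 1.98e-08). YGK1 rose by 1.54 ± 0.18 and by 1.16 at matched length. In NUC1 and CDC10 the lowest ADPRC value was about 2 times the highest mock value.

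**Figure D3:**
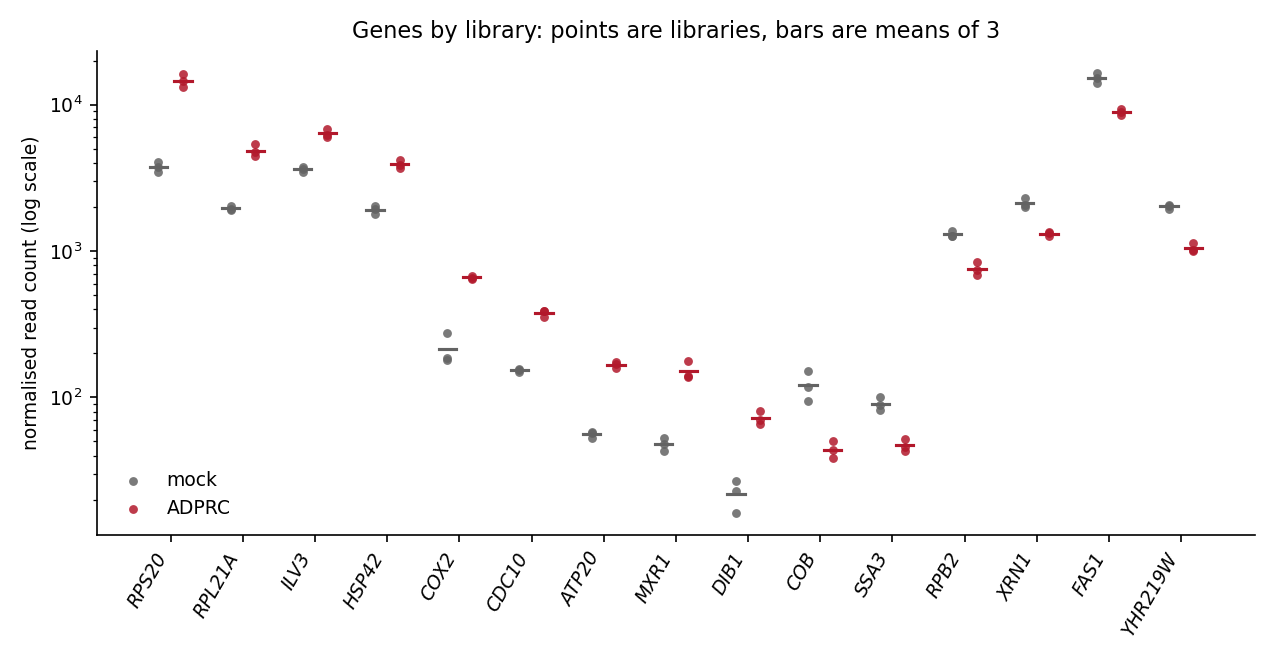
Normalised read counts (vertical log axis) of selected genes in each of the 3 mock and 3 ADPRC libraries, with group means as bars. In RPS20, RPL21A, ILV3, HSP42, COX2, CDC10, ATP20, MXR1 and DIB1 all ADPRC points lie above the mock points, and in COB, SSA3, RPB2, XRN1, FAS1 and YHR219W all lie below them.

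The 10 largest decreases were ranked among called genes whose groups did not overlap. Of these, 5 were frames in the ribosomal DNA, 3 were mitochondrial (COB, SCEI and ATP6) and the remaining pair were YLR342W-A and YMR013W-A. A further frame that overlaps a ribosomal RNA gene changed by -1.27 but was not called (limma adjusted p = 0.051). YLR154C-G, which overlaps a large ribosomal RNA gene and held nearly all reads of the ribosomal DNA frames, read 3127473, 2842475 and 3284711 in mock and 1310280.3, 1331565 and 1461721 in ADPRC libraries (-1.17 ± 0.06, limma adjusted p = 5.01e-13). The other 4 (YLR154W-F, YLR154W-B, RRT15 and YLR154W-A) were far lower. The call of YLR154W-B was lost without mock replicates 1 or 2 or ADPRC replicate 2 (limma adjusted p = 0.083, 0.085 and 0.080), and so was that of YLR154W-A (0.071, 0.076 and 0.076). That of RRT15 was lost without mock replicate 2 or ADPRC replicate 2 (0.053 and 0.061). In the ribosomal DNA list 8 of 11 tested frames were lower and 0 higher, beside 23.6% and 24.0% of all tested genes. Without mock replicate 2 or without ADPRC replicate 2, 5 frames were lower. SCEI, a frame that overlaps the mitochondrial large ribosomal RNA gene, read 116, 89.8 and 109 in mock and 44.7, 33.3 and 46.3 with ADPRC (-1.33 ± 0.17). The remaining pair fell by similar amounts, YLR342W-A (span 174 bases) by -1.35 ± 0.23 and YMR013W-A by -1.30 ± 0.31. YMR013W-A has no RefSeq match and so no span. Its ADPRC mean of 8.28 was under the filter of 10, so it passed through the mock group.

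Of 25 tested genes that overlap a non-coding RNA gene in the RefSeq table, 10 were lower and 5 higher, beside 23.6% and 24.0% of all tested genes, and at matched length 15 were lower and 3 higher, beside 12.7% and 14.1%. Their median at matched length was -0.28. YGL193C, which overlaps the antisense RNA RME2, read 28.9, 31.4 and 35.8 in mock and 18.6, 15.4 and 18.5 with ADPRC (-0.84 ± 0.24). NOG2, a GTPase of ribosome assembly whose gene overlaps the small nucleolar RNA SNR191, read 569.5, 641 and 661 in mock and 332, 396 and 368 with ADPRC (-0.77 ± 0.08). PHO84, the high-affinity phosphate transporter with an antisense RNA, read 445, 409 and 433 in mock and 259, 245 and 269 with ADPRC (-0.73 ± 0.08, -0.60 at matched length). In each of these 3 genes all ADPRC values lay below all mock values. IRC13, which overlaps the U3 gene SNR17A, read 18.1, 11.4 and 23.3 in mock and 10.6, 5.12 and 10.5 with ADPRC. Its ADPRC mean of 8.76 was under the filter of 10, so it passed through the mock group. Its call was lost without mock replicates 1 or 3 or ADPRC replicates 1 or 2 (limma adjusted p = 0.073, 0.14, 0.053 and 0.21). The 3 that were higher at matched length were ASC1, RPL7A and RPL7B, which overlap small nucleolar RNAs. This set was chosen after its values were seen. The use of strand in counting is not given in the sources used here. By their systematic names YGL193C, NOG2 and IRC13 lie on the same strand as the RNA they overlap, so strand alone would not separate their reads. Overlap is of whole gene spans, introns included, and whether an RNA lies within an intron was not checked. PHO84 and its antisense RNA lie on opposite strands.

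Outside the ribosomal DNA, the 8 largest decreases among genes with means of at least 1000 were YBL113C, YHR219W, YEL077C, YPR204W, YHL050C, YRF1-4, YRF1-2 and YLL067C. They belong to the helicase-like reading frames of the Y' elements, repeats at chromosome ends. YHR219W read 2070.2, 1944 and 2037 in mock and 1024, 1007 and 1138 in ADPRC libraries (-0.93 ± 0.07, -0.77 at matched length, where the limma adjusted p was 2.40e-08). The others fell by 0.82 to 0.97. All 8 tested YRF1 genes were lower, between -0.84 and -0.79, beside 23.6% of all tested genes. At matched length 7 of 8 were lower, beside 12.7% of all genes with a span. The copies are nearly identical, so they share reads and are not separate observations. YBL112C, a short frame that overlaps YBL113C, fell as well, with 237, 214 and 183 in mock and 129.9, 108 and 130.3 with ADPRC.

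The members named from each list include those with the largest called increase and decrease, so their opposite directions come from the choice. The counts as measured of all lists below stand beside 24.0% higher and 23.6% lower of all tested genes. In the nuclear-encoded ATP synthase list 13 of 17 genes were higher and 1 was lower (median 0.53 against 0.40 for other genes at matched length, the medians of their length classes weighted by the lengths in the list). ATP20, subunit g (348 bases), read 52.4, 58.4 and 57.3 in mock and 174, 170.3 and 159 in ADPRC libraries (1.57 ± 0.13). ATP2, the catalytic beta subunit (1536 bases), read 2829.6, 3109 and 3043 in mock and 2306, 2168 and 2401 with ADPRC (-0.39 ± 0.07). In the list of succinate dehydrogenase and cytochrome bc1, 8 of 15 were higher and 3 lower (0.45 against 0.35). SDH4, a membrane anchor (546 bases), read 163, 175 and 184 in mock and 423, 416 and 397 in ADPRC libraries (1.24 ± 0.09). SDH1, the flavoprotein of the same enzyme (1923 bases), read 399.6, 456 and 387 in mock and 311, 277 and 327 with ADPRC (-0.44 ± 0.09). COR1, a core protein of cytochrome bc1, fell by 0.34. Spearman's rank correlation between span and change within this list was -0.75 over 15 genes, as a description.

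The vacuolar ATPase had 4 of 11 listed subunits higher and 4 lower, beside 24.0% and 23.6% of all tested genes. Its median was 0.04 against 0.06, and 2 subunits were lower without ADPRC replicate 1. VMA10, the stator subunit G (507 bases), read 486, 398 and 535 in mock and 1155, 1252 and 1080.4 in ADPRC libraries (1.30 ± 0.09). VMA1, the catalytic subunit (3216 bases), read 6616, 6802 and 6747 in mock and 5434, 5238 and 5443 with ADPRC (-0.32 ± 0.06, 0.09 at matched length). Of the RNA polymerase I, II and III subunits, 11 of 31 were higher and 6 lower (0.09 against 0.17). RPB9, a small subunit of polymerase II (369 bases), read 45.2, 47.04 and 42.96 in mock and 117, 115 and 95.7 with ADPRC (1.25 ± 0.15). RPB2, its second-largest subunit (3675 bases), read 1264, 1359.8 and 1273 in mock and 747, 690.2 and 841 with ADPRC (-0.78 ± 0.08, -0.31 at matched length), and RPO21, the largest, fell by 0.70 (-0.09 at matched length). The rank correlation between span and change was -0.79 in the vacuolar ATPase, -0.66 in the RNA polymerases and -0.32 in the ATP synthase list, and over the lists it ran from -0.84 in glycolysis to 0.13 in the proteasome 20S core.

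The proteasome 19S particle, which recognises and unfolds substrates, had 10 of 19 genes higher and 2 lower (median 0.27 against 0.10). SEM1 (270 bases) read 86.8, 98.3 and 100.2 in mock and 243, 246 and 222 in ADPRC libraries (1.31 ± 0.11), while the large subunits RPN2 (-0.53 ± 0.08) and RPN1 (-0.34 ± 0.07) fell. At matched length 8 of the 19 were higher, beside 14.1% of all genes with a span. Without mock replicate 1 or without ADPRC replicate 1, 5 were higher. The 20S core, with subunits of similar size, had 11 of 14 genes higher and 0 lower (1 lower without mock replicate 2), with PUP2 at 0.74 ± 0.09, PRE6 at 0.62 ± 0.08 and a median of 0.35 against 0.33. The list of large TOR, PIKK, dynein and lipid-transfer proteins also holds other long genes (median span 7419 bases). Of its 28 genes 27 were lower (17 at equal totals) and 0 higher (median -0.66 against -0.55). Of all 266 tested genes of 3600 bases or more, 93.6% were lower. FAS1, the beta subunit of fatty acid synthase, read 15238, 16508 and 14043 in mock and 8872, 8535 and 9337 with ADPRC (-0.77 ± 0.06), and IRA1, a Ras GTPase-activating protein, fell by 0.82. At matched length 0 of the 28 were lower by limma (1 without ADPRC replicate 2 or without replicate 3) and 7 were higher. Of all genes with a span 12.7% were lower and 14.1% higher at matched length. FAS1 and IRA1 were then at -0.11 and -0.01 (limma adjusted p = 0.12 and 0.95).

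**Figure D4:**
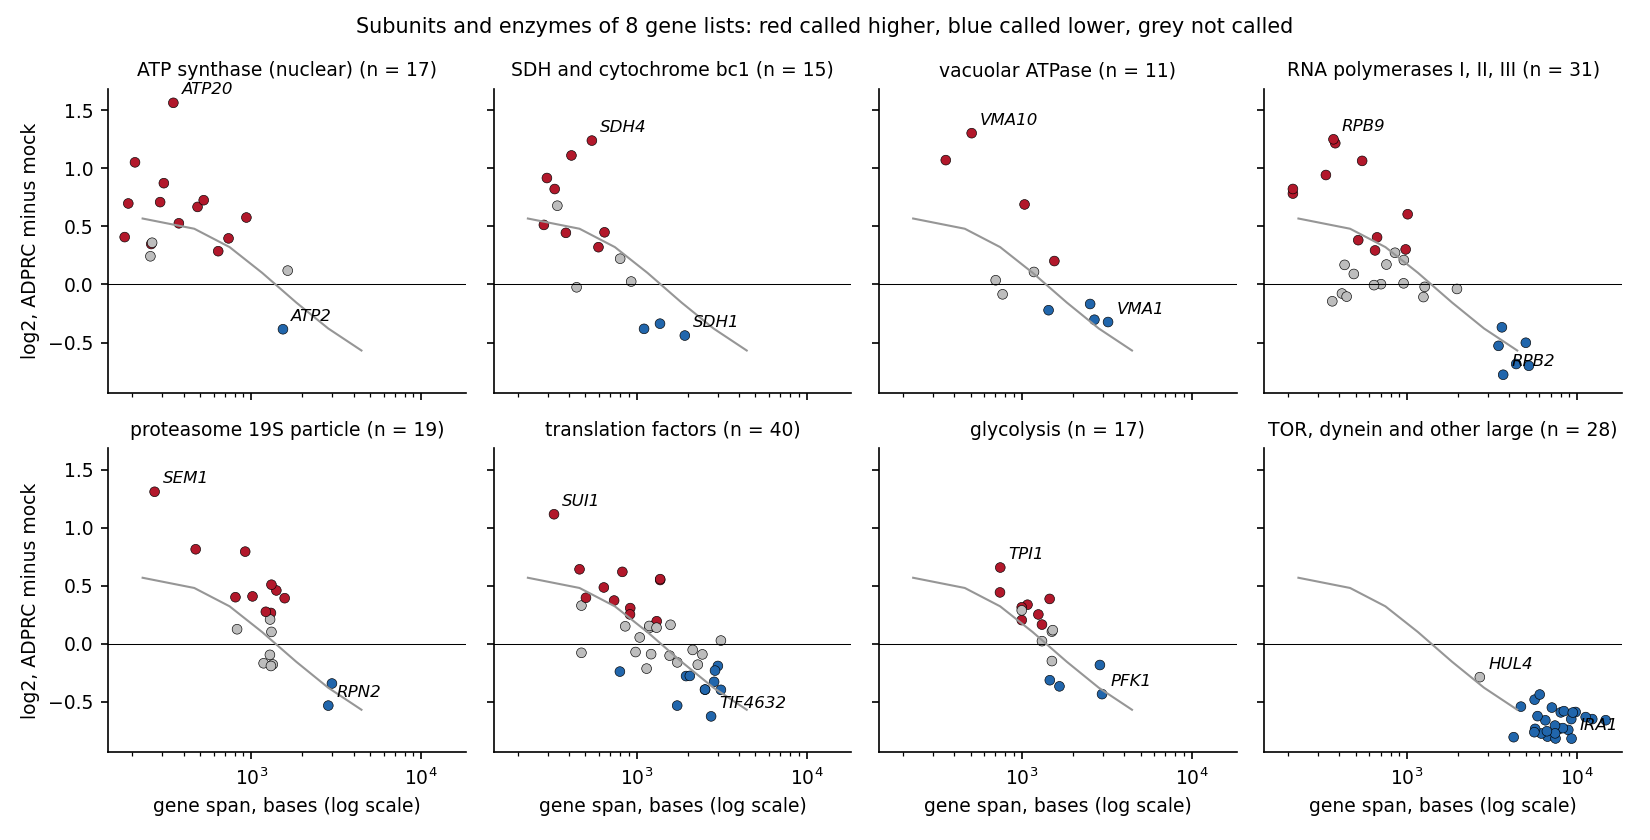
Log2 difference between ADPRC and mock (vertical axis) against gene span in bases (horizontal log axis) for the genes of 8 lists, with the length-class medians of all genes as a line and extreme genes named. The named genes are extremes of their lists, such as ATP20 (1.57) and ATP2 (-0.39). In the list of TOR, PIKK, dynein, lipid-transfer and other large proteins all genes lie below 0.

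Of the proteolipids and other small membrane proteins, 13 of 17 rose and 0 fell (median 0.76 against 0.51), with OST4, a subunit of the oligosaccharyltransferase, at 1.39 ± 0.19 and VMA3, the vacuolar proteolipid, at 0.62 ± 0.08. Of the small TIM and TOM import proteins, 15 of 22 rose and 0 fell (0.54 against 0.39). TIM10, a chaperone of the intermembrane space, read 174, 199.5 and 145 in mock and 469, 519 and 369 with ADPRC (1.38 ± 0.13), and TOM40, the import channel, rose by 0.27 ± 0.07. Of the nuclear cytochrome c oxidase subunits 5 of 9 rose and 0 fell (0.39 against 0.52), COX9 by 1.14 ± 0.13 among those that rose. Of the oxidase assembly factors 12 of 28 rose (8 at the lowest count without 1 library) and 2 fell (0.44 against 0.30). The latter were PET111, a translation activator of COX2 mRNA (-0.58 ± 0.18), and OXA1, an inner membrane insertase (-0.26 ± 0.09). The call of PET111 was lost without ADPRC replicates 1 or 2 (limma adjusted p = 0.069 and 0.086) and that of OXA1 without mock replicates 2 or 3 or ADPRC replicate 2 (0.052, 0.064 and 0.11). Of the Sm, LSm and small spliceosome proteins 11 of 20 rose (8 at the lowest count without 1 library) and 0 fell by limma (0.48 against 0.51). Of the large spliceosome proteins 8 of 17 fell (5 without ADPRC replicate 1) and 0 rose, BRR2 at -0.56 and PRP8 at -0.50 among them, with a median of -0.34 against -0.28 that turned to 0.09 at equal totals.

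Most cytosolic ribosomal protein genes rose. Of the small-subunit genes 48 of 57 were higher and 0 lower (1 lower without mock replicate 2), and of the large-subunit genes 68 of 81 were higher and 1 lower, beside 24.0% and 23.6% of all tested genes. Their median log2 differences were 0.66 and 0.54, against 0.30 and 0.29 for other genes at matched length. With the length trend removed their own medians were 0.28 and 0.24. Of the 57 small-subunit genes 34 were then higher and 7 lower, beside 14.1% and 12.7% of all genes with a span. Of the 81 large-subunit genes 44 were then higher and 8 lower. The summed level of the small-subunit genes was 130564 to 138194 normalised counts in mock and 206909 to 216416 in ADPRC libraries. RPL21A read 2045, 1919.9 and 1949 in mock and 4757, 5374 and 4439.5 in ADPRC libraries (1.30 ± 0.07), and RPL37B, RPS14A, RPL25, RPL36A and RPL42A rose by 1.12 to 1.28. The large-subunit gene called lower was RPL22B (-0.29 ± 0.11), whose call was lost without mock replicate 3 (limma adjusted p = 0.067) or ADPRC replicate 3 (0.14). Without mock replicate 2, 3 large-subunit genes were lower, and without ADPRC replicate 2, 2 were.

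Gene spans include introns, which many ribosomal protein genes have. Among the 20 large-subunit genes with spans under 600 bases the median was 0.47 against 0.50 for other genes of those lengths. At matched length 6 of them were higher and 6 lower, beside 14.1% and 12.7% of all genes with a span. Among the 61 with longer spans the median was 0.56 against 0.22, and at matched length 38 were higher and 2 lower. Among small-subunit genes the 14 short ones had a median of 0.81 against 0.50 and the 43 longer ones 0.60 against 0.24. At matched length 7 of the 14 were higher and 2 lower, and 27 of the 43 were higher and 5 lower. This split was chosen after the data were seen. Of the mitochondrial ribosomal protein genes 32 of 78 were higher and 0 lower (1 lower without mock replicate 2 or without ADPRC replicate 3), with a median of 0.31 against 0.33. MRPL39 led them with 61.5, 41.3 and 59.1 in mock and 142, 130.0 and 145 with ADPRC (1.37 ± 0.15).

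Of the translation factors 11 of 40 were higher and 11 lower, beside 24.0% and 23.6% of all tested genes (median -0.01 against 0.02, 0.41 at equal totals). SUI1, the start-site selection factor eIF1, read 300.1, 315 and 338 in mock and 664, 819.6 and 601 with ADPRC (1.12 ± 0.09), and TIF4632, a form of the scaffold eIF4G, read 712, 699.8 and 687 in mock and 469.6, 409 and 484 with ADPRC (-0.63 ± 0.08). TEF2, elongation factor eEF1A, which shares its values with its identical copy, read 58132, 62521 and 58714 in mock and 84997, 86101 and 92764 in ADPRC libraries (0.56 ± 0.06). Ribosome biogenesis genes had 11 of 50 higher and 13 lower (-0.06 against -0.06, 0.37 at equal totals), with NOP15 at 0.99 ± 0.11 and REA1, a giant AAA ATPase (14733 bases), at -0.66 ± 0.08. REA1 was higher at matched length (0.31, limma adjusted p = 2.97e-04). Of the histones 7 of 11 rose and 0 fell (0.37 against 0.45), HTB1 with 1228, 1176 and 1382 in mock and 2587, 2519.6 and 2634 with ADPRC (1.03 ± 0.07).

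**Figure D5:**
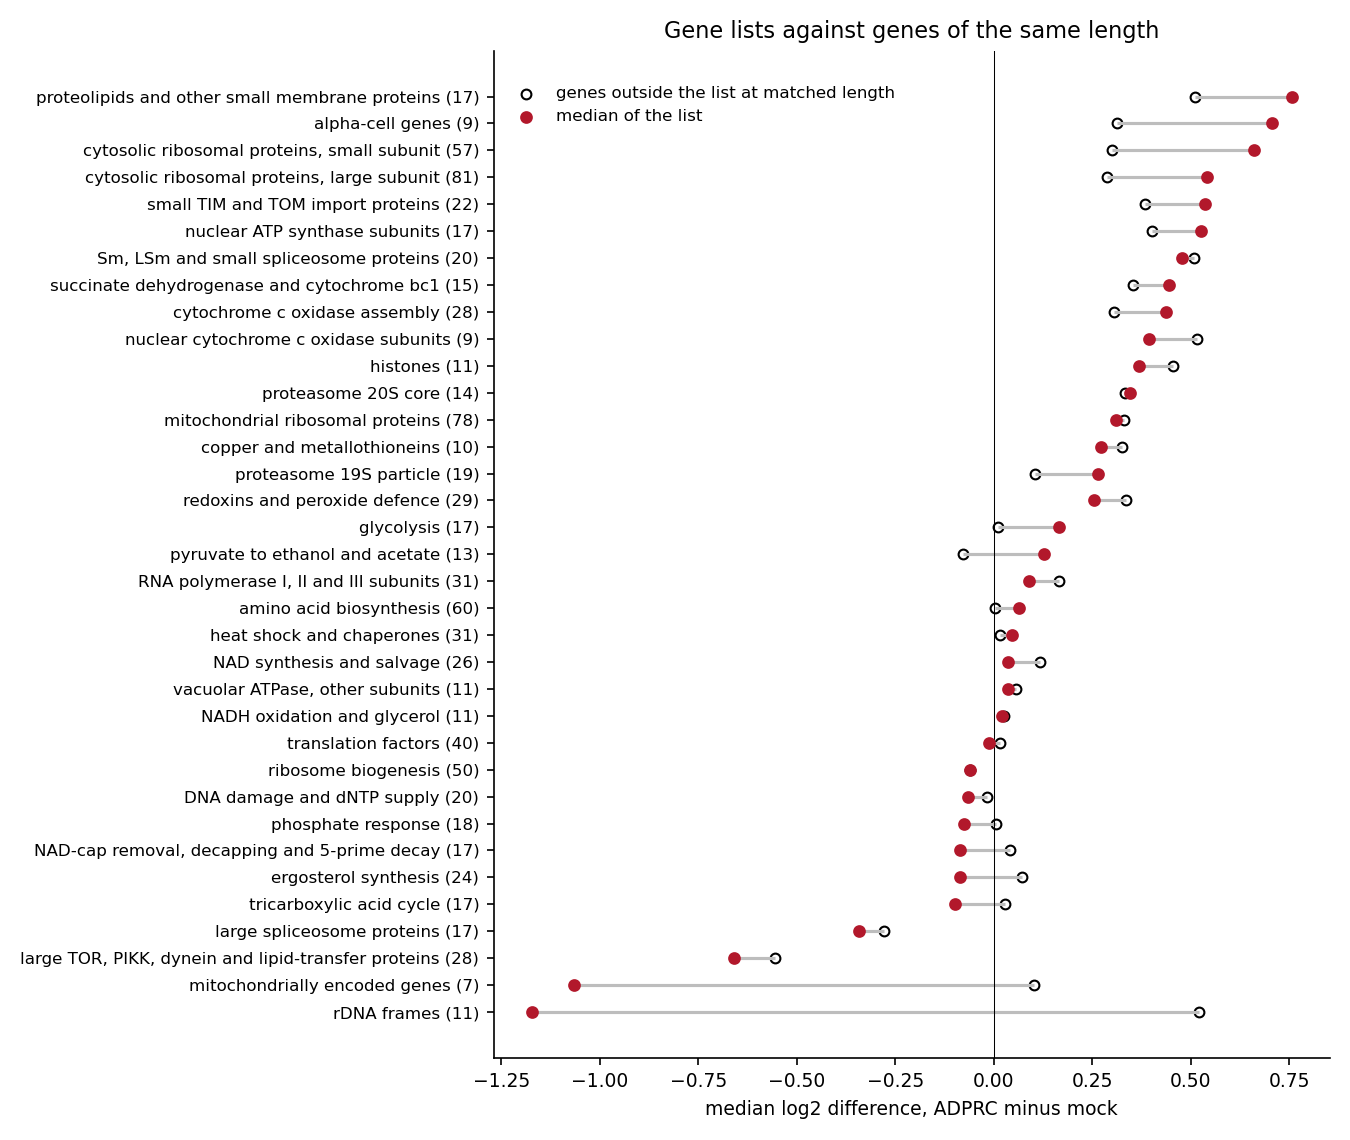
Median log2 difference between ADPRC and mock of each gene list with at least 5 tested genes (red, number of genes in brackets) and the value for genes outside the list at matched length (open circles). The small and large cytosolic subunit lists lie at 0.66 and 0.54, with matched values of 0.30 and 0.29.

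The counts of the metabolic lists stand beside 24.0% higher and 23.6% lower of all tested genes. In glycolysis 8 of 17 were higher and 4 lower (median 0.16 against 0.01), from TPI1, triosephosphate isomerase (0.66 ± 0.07), to PFK1, a phosphofructokinase subunit (-0.43 ± 0.06). The rank correlation between span and change was -0.84 over these 17 genes. In the list from pyruvate to ethanol and acetate 5 of 13 were higher (3 without mock replicate 2 or without ADPRC replicate 1) and 4 lower (0.13 against -0.08). ADH4, an alcohol dehydrogenase, fell by 0.48 and PDC1, the main pyruvate decarboxylase, by 0.20. At equal totals PDC1 was called higher instead (0.24, limma adjusted p = 0.0022). In the tricarboxylic acid cycle 4 of 17 were higher and 2 lower (2 and 4 without ADPRC replicate 2), with a median of -0.10 against 0.03 (0.34 at equal totals). IDP1, mitochondrial NADP-specific isocitrate dehydrogenase, read 976, 1119 and 1008 in mock and 1528, 1525 and 1634 with ADPRC (0.60 ± 0.07), while KGD1, of the ketoglutarate dehydrogenase complex, fell by 0.40 and ACO1, aconitase, by 0.31. In amino acid biosynthesis 21 of 60 were higher and 12 lower (7 lower without ADPRC replicate 1; 0.06 against 0.00). ILV3, dihydroxyacid dehydratase of branched-chain synthesis (1758 bases), read 3746, 3610.4 and 3492 in mock and 6053, 6789 and 6245 in ADPRC libraries (0.81 ± 0.06, 0.94 at matched length). ILV5 of the same pathway rose by 0.61 ± 0.06, and ARO1, a pentafunctional enzyme of 4767 bases, fell by 0.73.

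In ergosterol synthesis 8 of 24 were higher (5 without ADPRC replicate 2) and 8 lower (median -0.09 against 0.07, 0.35 at equal totals). ERG2, the sterol isomerase, read 248, 308 and 269 in mock and 644, 587 and 605 with ADPRC (1.16 ± 0.09), and HMG2, a reductase of the mevalonate pathway, fell by 0.39. In the phosphate response 7 of 18 were higher, VTC1 of the polyphosphate polymerase among them (0.70 ± 0.08), and 4 lower, PHO84 among them (-0.08 against 0.01, 0.36 at equal totals). Heat shock genes and chaperones had 10 of 31 higher and 9 lower (0.05 against 0.02). HSP42, a small heat shock protein, read 2016, 1789 and 1924 in mock and 3855, 4206 and 3689.6 in ADPRC libraries (1.04 ± 0.07, 0.91 at matched length). SSA3, a stress-inducible Hsp70, read 101, 88.4 and 82.3 in mock and 43.1, 46.1 and 51.9 with ADPRC (-0.93 ± 0.16, -0.75 at matched length). Of the redoxins and peroxide defence genes 17 of 29 rose and 0 fell (0.25 against 0.34). AHP1, an abundant peroxiredoxin, rose by 0.23 ± 0.06 as measured and was lower at matched length (-0.21). Of the copper and metallothionein genes 4 of 10 were higher, among them ATX1, a copper chaperone (0.89 ± 0.23), and 1 lower (0.27 against 0.33). Of those higher, 2 are the identical CUP1 copies, which share their values and so are 1 observation (0.38, and -0.28 at matched length, where they were called lower). Without any single mock library or without ADPRC replicate 1, 2 of these were higher, and without any library other than mock replicate 2, 0 were lower by limma.

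Of the genes of NAD synthesis and salvage, 7 of 26 were higher and 2 lower, beside 24.0% and 23.6% of all tested genes. Without mock replicates 1 or 3 or ADPRC replicates 2 or 3, 1 was lower. The list's median was 0.04 against 0.12 for other genes at matched length. POS5, the mitochondrial NADH kinase, read 84.98, 82.7 and 66.2 in mock and 146, 122 and 172 with ADPRC (0.90 ± 0.14, 0.83 at matched length). Of the genes that remove NAD caps, decap or degrade RNA from the 5' end, 3 of 17 were higher and 5 lower (3 lower without ADPRC replicate 1), with a median of -0.08 against 0.04 (0.35 at equal totals). DCP1, of the decapping enzyme, rose by 0.59 ± 0.13, and at matched length its difference of 0.23 was not called (limma adjusted p = 0.21). XRN1, the cytoplasmic exonuclease (4587 bases), read 2009, 2299 and 2062 in mock and 1324, 1265 and 1355 with ADPRC (-0.69 ± 0.07). Its matched-length difference was -0.13 (limma adjusted p = 0.11). At matched length 2 of the 17 listed genes were higher and 6 lower, beside 14.1% and 12.7% of all genes with a span. Without mock replicate 1 or without ADPRC replicate 2, 2 were lower. Of the genes of NADH oxidation and glycerol metabolism, 4 of 11 were higher and 4 lower (0.02 against 0.03). GPP1, a glycerol phosphatase, read 2981, 2869 and 2993 in mock and 5021, 4905 and 4919 with ADPRC (0.75 ± 0.06), and GUT1, glycerol kinase, fell by 0.50 and was not called at matched length (-0.28, limma adjusted p = 0.078).

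Of the genes for DNA damage and dNTP supply 5 of 20 rose and 7 fell, beside 24.0% and 23.6% of all tested genes. SHU2, which passed the filter through the ADPRC group, was among those that rose, and 4 genes fell without ADPRC replicate 1. The list's median was -0.06 against -0.02 (0.36 at equal totals). DIN7, a nuclease that acts in mitochondria, read 30.7, 41.3 and 34.01 in mock and 15.4, 16.01 and 20.4 with ADPRC (-0.99 ± 0.24), and RNR1, the large ribonucleotide reductase subunit, fell by 0.58. HUG1, an inhibitor of that enzyme, had a mean of 9.37 over the 6 libraries and was not tested. Of the alpha-cell genes 4 of 9 were higher and 1 lower (7 higher without ADPRC replicate 2 or without replicate 3), with a median of 0.71 against 0.31. At matched length 1 of the 9 was higher (0 to 4 without 1 library) and 1 lower, beside 14.1% and 12.7% of all genes with a span. The list's median was then 0.28. MATALPHA1 rose by 0.78 ± 0.16. It shares its values with the silent copy, so their calls are 1 observation. SAG1, the alpha-agglutinin, fell by 0.34. HIS3, the single tested gene of those deleted in the strain, rose by 0.47 ± 0.12. STE6, the single tested a-cell gene, was not called (-0.41, limma adjusted p = 0.090, and lower without mock replicate 1).

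Some genes went against their length. The longest genes called higher were GPH1, glycogen phosphorylase (2709 bases), NAN1, a processome subunit, PPS1, a dual-specificity phosphatase, DOA1, a ubiquitin-binding protein, PSP2 and TUP1, a general corepressor. GPH1 read 729, 707 and 730.4 in mock and 947, 895 and 933 in ADPRC libraries (0.36 ± 0.07, 0.69 at matched length, where the limma adjusted p was 1.04e-07). PPS1 read 289, 295 and 288 in mock and 387, 396 and 365 with ADPRC (0.39 ± 0.08). The values of the groups did not overlap in either gene. The calls as measured of NAN1 and DOA1 were lost without mock replicate 1 (limma adjusted p = 0.080 and 0.072), those of PSP2 and TUP1 without mock replicate 3 (0.055 and 0.13), and each of these also without at least 1 other library. At matched length NAN1, DOA1, PSP2 and TUP1 were higher by 0.40 to 0.55. Among the shortest genes called lower were YER138W-A (105 bases), with 259, 281 and 236 in mock and 116, 122 and 149 with ADPRC, YOR192C-C (-0.69 ± 0.13) and YOR015W (-0.78 ± 0.18).

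Of the 8 largest increases among genes with means of at least 1000, COF1 was the one outside the ribosomal proteins. COF1, the actin-severing cofilin, read 785, 817 and 802 in mock and 1671, 2062 and 1585 in ADPRC libraries (1.14 ± 0.08).

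In the YEPD libraries, which stand apart in the ribosomal DNA strands as given above, the same contrast was computed in a fit on all 12 libraries. The minimal-medium calls are those of the fit on 6 libraries, and the 12-library fit gave 776 higher and 809 lower. The calls of the media are therefore not from like fits. Of the 1285 genes higher in minimal medium, 1180 had a positive change in YEPD and 228 were called higher there, beside 5.2% of all tested genes. Of the 1260 lower, 1188 had a negative change and 27 were called lower, beside 0.654%. By limma 0 genes were called in opposite directions. Across genes, which are not independent, the changes in both media had a Pearson's r of 0.73 over 5349 genes and of 0.53 at matched length. The median of short genes minus that of long genes was -2.97, -2.91 and -2.74 in YEPD mock replicates 1, 2 and 3. It was -1.35 in YEPD ADPRC replicate 2, -2.52 in replicate 3 and -2.38 in the ADPRC library whose column carries no number. Replicate 2 also had a ribosomal DNA share of 65.9%, against 80.5% in replicate 3 and 79.4% in the unnumbered library.

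A difference between the media in the ADPRC change was called for 0 genes (0.0%; limma interaction, 12 libraries), with 449 genes at an unadjusted p under 0.05. RPS20 changed by 1.95 in minimal medium and 0.79 in YEPD (difference 1.16 ± 0.60, limma adjusted p = 0.65). IMP1 changed by 1.65 and 0.64 (1.01 ± 0.37, limma adjusted p = 0.43), and COX2 by 1.65 and 1.60 (0.06 ± 0.24, 0.98). Without YEPD ADPRC replicate 2, 1060 genes (19.8%) differed, 499 with a positive and 561 with a negative difference. That of RPS20 was then 1.92 (limma adjusted p = 1.60e-13), that of IMP1 1.30 (0.0034) and that of COX2 -0.04 (0.92). The number of differences called thus rests on that library.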

How the data were processed

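The deposited table holds normalised gene-level signal values, made by the authors from reads and scaled between libraries. Per the submitters' processing notes the tools were Bowtie, HTSeq, DESeq, Trimmomatic and FastQC, with no versions. The sources used here give neither the genome build nor the use of strand in counting. All values (100%) were whole multiples of one step per library within a tolerance of 0.01, so reads were recovered as value divided by step. Of 6608 rows 1 repeated an identifier, leaving 6607, of which 5919 matched the RefSeq table (assembly R64) by identifier.

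Values were tested as log2(value + 1) with limma 3.58.1 (trend and robust estimation, R 4.3.3) on the 6 minimal-medium libraries, with Benjamini-Hochberg adjustment over all 5349 genes and a threshold of 0.05. A fold on this scale understates the change of low genes. Length is the RefSeq gene span, introns included, in place of the coding length first planned. For matched length, a lowess trend (span 0.4) on log2 length was subtracted in each library. The YEPD contrast and the difference between media (an interaction) came from a fit over all 12 libraries. edgeR 4.0.16 and DESeq2 1.42.0 on recovered reads were alternatives, with other scalings, filters and left-out libraries. The fits were tested on simulated data.

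Members and gene lists were chosen with earlier results of these data known, and the lists come from general knowledge. Genes were named by rule: the largest called changes as measured and at matched length, the largest among abundant genes, the longest higher and shortest lower genes, the extreme and most abundant genes of each list, and genes of each length class. The rule gave 140 genes, of which 115 are named; some results are not reported here.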

Additional observations from a re-analysis of the deposited data

How the results depend on the processing

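With each library at the same total, 3231 genes were higher and 171 lower, and in the fit on all 12 libraries 776 and 809. Under the other scalings, filters, pseudocounts and tools the counts stayed within 1.5 times of 1285 and 1260. They ran from 982 higher (equal totals outside the ribosomal DNA frames) to 1295 (pseudocount of 8), and from 1042 lower (DESeq2 on recovered reads) to 1648 (equal totals outside the ribosomal DNA frames), with edgeR at 1258 and 1314. Leaving out 1 library gave 1020 to 1236 higher and 1023 to 1211 lower genes as measured, and 485 to 687 higher and 412 to 612 lower at matched length. The difference between media was called for 0 genes without each library in turn, except YEPD ADPRC replicate 2 (1060 genes; range 0 to 1060). With the same total per library, the log2 changes of genes that were negative as measured turned positive for COR1 (0.10), OXA1 (0.18), ATP2 (0.0485), VMA1 (0.11), RPN1 (0.0911), PDC1 (0.24), KGD1 (0.0314), ACO1 (0.13), HMG2 (0.0467), SAG1 (0.0907), STE6 (0.0132) and RPL22B (0.14). Of these, PDC1 was called higher at the same total (limma adjusted p = 0.0022), and the others were not called. Over 115 named genes, 2060 of 2173 comparisons with an alternative kept direction and side of the threshold, 97 lost the call, 4 gained it and 12 reversed. Same-numbered libraries did not deviate together (correlations of -0.05, -0.09 and -0.07). This cannot settle whether they share a culture, because counting error also enters these deviations. A replicate block gave 1217 higher and 1204 lower genes, and 691 and 613 at matched length. The difference between media could not be blocked, because 1 YEPD column has no number. A fit on gene span in place of coding length equals the one reported, which already uses spans. Mock depth limits genes near the limit that 3 reads set.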
